A study of Homo sapiens with 12 samples.

Results

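FOXA1 chromatin immunoprecipitation sequencing (ChIP-seq) peaks of LNCaP cells kept for 7 days with the EZH2 inhibitor EPZ-6438 were compared with those of cells kept for 7 days with the solvent DMSO. These are 4 of the 12 libraries of the series, identified by their treatment labels: DMSO replicates 1 and 2, and EPZ-6438 replicates 1 and 2 at a dose of 1 µM. LNCaP is an established, androgen-responsive human prostate cancer cell line, and no knockdown, tag or transgene is named for these libraries. The labels spell the solvent DMSO in the titles and DMO in the treatment field. They leave unsaid whether the replicates came from separate cultures, so each p-value rests on these libraries alone, whose spread may be technical. In the main test of single regions that spread was pooled over regions of similar signal level. The other 8 libraries are 4 FOXA1 libraries with P5091, an inhibitor of the deubiquitinase USP7, at 3 µM alone or together with EPZ-6438, and 4 libraries of the HA tag after 5 days, from a control (pGIPZ), a FOXA1 knockdown (shFoxA1) and that knockdown with wild-type or K295A FOXA1 added.

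FOXA1 is a forkhead pioneer factor: it can bind its motif in closed chromatin and opens sites for the androgen receptor and other luminal factors of the prostate. EZH2 is the catalytic subunit of Polycomb repressive complex 2, which methylates lysine 27 of histone H3 at silenced genes, and EPZ-6438 (tazemetostat) blocks its methyltransferase activity. The series title ties the experiment to the control of FOXA1 protein stability by Polycomb and a BUB3/USP7 complex, and the comparison asks where on the genome FOXA1 signal differs once EZH2 is inhibited. Protein levels, RNA and histone methylation were not analysed here. Positions are those of the deposited files (hg19); no gene annotation or sequence of that build was used, so regions are given by coordinates and not by genes.

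The 4 libraries were of similar quality. Total tags numbered 13674684 and 17225421 for DMSO replicates 1 and 2, and 22589685 and 12299238 for EPZ-6438. Between 18.9% and 21.2% of the tags lay in peaks. The deeper library of each pair was EPZ-6438 in replicate 1 and DMSO in replicate 2, so depth ran against the treatment in opposite directions. The false discovery rate set the calling threshold at 8.04 tags per 1e7 in DMSO replicate 1 and 6.20 in EPZ-6438 replicate 1, and at 6.39 and 8.13 in replicate 2. These are not strict floors of the normalized tag count. Its lowest values were 6.58 (DMSO) and 5.31 (EPZ-6438) in replicate 1, and 4.64 and 6.50 in replicate 2. Fragment lengths were 274 and 278 bases in replicate 1 and 220 and 224 bases in replicate 2, a split by replicate number and not by treatment.

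Neither peak numbers nor the typical signal at shared sites separated the treatments. The lists held 70809 and 81511 peaks under DMSO, and 77780 and 84423 under EPZ-6438. Merging peaks that shared at least 1 base gave 122847 regions, of which 44736 (36.4%) were called in all 4 libraries and 38450 (31.3%) in 1 alone. At the regions called in all 4 the median normalized tag count (tags per 1e7) was 27.1 and 24.4 under DMSO and 23.5 and 26.0 under EPZ-6438, so the treatments overlapped. The median log2 tag count differed by -0.20 in replicate 1 and 0.088 in replicate 2, and by -0.055 between the group means (exact permutation p = 0.667, two-sided; 2 libraries against 2 cannot go below 0.333). The log2 peak number was higher under EPZ-6438 in both replicate numbers, by 0.14 and 0.051, and by 0.093 between the group means (exact permutation p = 0.667, two-sided; exact sign-flip p within replicate numbers 0.5, the smallest that 2 pairs allow). All differences below are relative to the median of each library, which was set equal, and say nothing of a change shared by all sites.

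At single sites, FOXA1 signal rose under EPZ-6438 at 191 regions and fell at 227, together 0.934% of the 44736 tested (0.427% higher and 0.507% lower). The test was limma on log2 (normalized tag count + 1), blocked by replicate number, at a Benjamini-Hochberg adjusted p of 0.05. The median rise was 1.28 on the log2 scale, a fold of 2.43, and the largest was 1.89. The median fall was -1.10 and the largest -1.89. An unadjusted p under 0.05 was reached at 5903 regions, 13.2% of those tested. On tags recovered from the deposited values, edgeR with the same block called 163 regions higher and 184 lower, 0.776% in all, and 344 of these 347 were among the 418 of limma.

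Far fewer regions were called without the comparison within replicate numbers. Without the block limma called 21 regions (0.0469%), 10 higher and 11 lower, all of them among the 418. With 1 library left out as well as the block, which 3 libraries do not allow, a lone library was assumed to vary like the other group, and the count was 0 without DMSO replicate 1 (2285 at an unadjusted p under 0.05), 1 without DMSO replicate 2, 1 without EPZ-6438 replicate 2 and 39 without EPZ-6438 replicate 1. Without centring the split turned to 45 higher and 170 lower. In the fit with the block, which leaves 1 residual degree of freedom per region, limma drew its spread wholly from all regions at the same signal level. A single region's own disagreement between replicates thus carried no weight in its p. The SE values given below likewise reflect the signal level of a region and not the difference between its own replicates.

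The replicate numbers could be compared with each other, since they come from different libraries. Differences between EPZ-6438 and DMSO had the same sign in both numbers at all 191 risen and all 227 fallen regions, and at 57.8% of all tested regions; the test of their mean largely fixes this for the called ones. At least 2-fold higher in both were 175 regions (0.391%), and at least 2-fold lower in both were 116 (0.259%), whereas 13 (0.0291%) differed at least 2-fold in opposite directions. Without centring these counts were 109, 142 and 34, so the balance of higher to lower turned. At a difference of at least 0.5 on the log2 scale the counts were 2149 higher in both, 1791 lower in both and 1242 in opposite directions. Across the 44736 regions the differences of replicate 1 and replicate 2 correlated with Pearson r = 0.259 and Spearman rho = 0.240. Regions are not independent, and the pairs share no library, only the DMSO and EPZ-6438 input libraries used for calling. Most sites moved little: 95.05% in replicate 1 and 93.7% in replicate 2 lay within 2-fold.

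**Figure D1:**
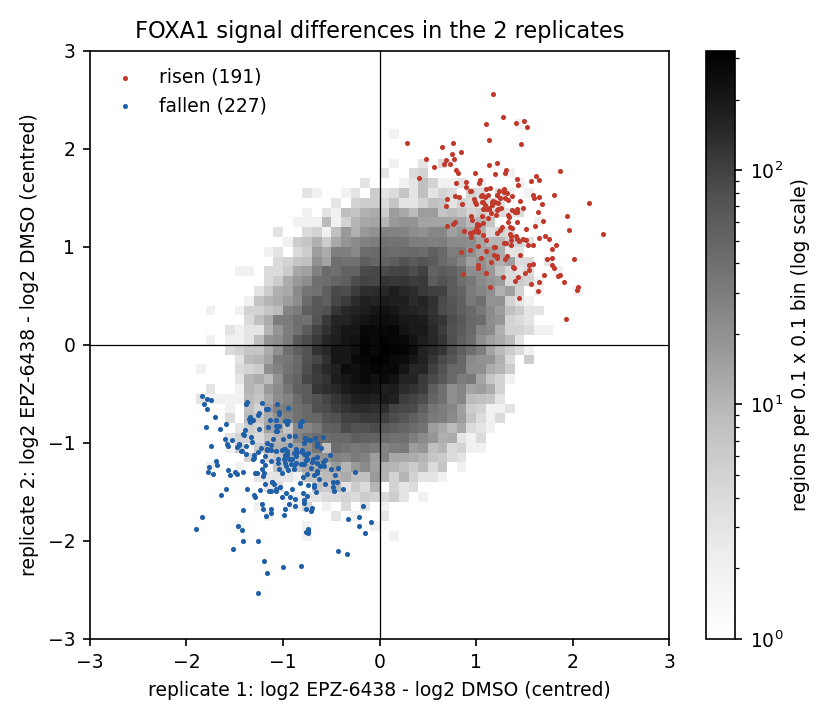
EPZ-6438 minus DMSO in FOXA1 signal, in replicate 1 (x axis) and replicate 2 (y axis), as log2 (normalized tag count + 1) with each library centred on its median. Grey squares count all 44736 tested regions on a log scale, red points are the 191 risen and blue points the 227 fallen regions, and all coloured points lie in the quadrants where both replicates have the same sign.

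The sites with the largest rise were weak under DMSO and of middling strength under EPZ-6438. Choosing by the size of the rise favours low DMSO values. At chr7:95320682-95321102 the tag count was 9.51 and 8.13 under DMSO and 24.8 and 46.3 under EPZ-6438, a log2 difference of 1.89 ± 0.36 (SE, adjusted p = 0.000356 by limma). At chr3:133429878-133430335 the values were 7.31 and 8.71, then 19.9 and 47.2 (1.88 ± 0.36). At chr12:39285941-39286319 they were 10.2 and 14.5, then 42.9 and 43.9 (1.81 ± 0.34). In each of these the DMSO values lay close together and below both EPZ-6438 values. The low level was not shared by all libraries without EPZ-6438. P5091 replicate 2 had 20.6, 24.8 and 30.3 at these sites, above both DMSO values at each. P5091 replicate 1 had no peak at the chr7 and chr3 sites and 9.13 at the chr12 site.

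Further rises showed the same order in other parts of the genome. At chr20:57874876-57875246 the tag count was 14.6 and 21.5 under DMSO and 66.8 and 51.2 under EPZ-6438 (log2 difference 1.72 ± 0.30). At chr15:92882523-92882923 it was 11 and 7.55, then 27.9 and 36.6 (1.76 ± 0.36), and at chr1:88180780-88181172 it was 19.0 and 9.29, then 36.3 and 51.2 (1.68 ± 0.34). The other 4 of the 10 largest rises lay on chromosomes 13, 8, 1 and 9, with log2 differences of 1.80 to 1.87. In all 10, chosen for the size of their rise, both EPZ-6438 tag counts lay above both DMSO tag counts, without centring. The same held at 14.1% of all tested regions. The DMSO values ranged from 6.39 to 21.5 against 19.9 to 66.8 under EPZ-6438. DMSO values stood near the calling threshold at many of them: over the 191 risen regions, 71 (37.2%) had a DMSO value under 1.5 times that library's threshold, against 10.2% of all tested regions.

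The sites with the largest fall started from higher signal. Choosing large falls among regions that kept a peak in all 4 libraries favours such sites. At chr2:99321208-99321600 the tag count was 76.8 and 57.5 under DMSO and 27.4 and 9.76 under EPZ-6438, a log2 difference of -1.89 ± 0.30 (SE). At chr22:33432898-33433284 it was 98.0 and 72.6, then 22.1 and 20.3 (-1.89 ± 0.28), the closest match between replicates among the 10 largest falls. At chr14:29289930-29290300 it was 43.1 and 74.9, then 9.74 and 22.8 (-1.80 ± 0.32). Both EPZ-6438 values lay below both DMSO values at each of these sites.

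The strongest of the 10 largest falls was chr10:47106044-47106426, with tag counts of 218.7 and 133.5 under DMSO and 82.3 and 30.1 under EPZ-6438 (log2 difference -1.70 ± 0.23). Several of the 10 stood near the calling threshold of 8.13 in EPZ-6438 replicate 2. Values there were 9.76 at chr2:99321208-99321600 and chr7:102769457-102769929, 10.6 at chr19:35080676-35081080, 11.4 at chr14:30346480-30346906 and 7.32 at chr15:100623611-100624034. Another was chr14:50857147-50857534, with 28.5 and 41.8 under DMSO, then 7.97 and 9.76 under EPZ-6438 (-1.80 ± 0.36). At chr7:72218853-72219246 the values were 64.4 and 48.8, then 20.4 and 12.2 (-1.71 ± 0.31). The other 4 lay on chromosomes 19, 7, 15 and 14, with differences of -1.75 to -1.63. In all 10, chosen for the size of their fall, both EPZ-6438 tag counts lay below both DMSO tag counts, without centring. The same held at 20.9% of all tested regions. Of the 227 fallen regions, 24 (10.6%) had an EPZ-6438 value under 1.5 times that library's threshold, near the 8.15% of all tested regions.

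**Figure D2:**
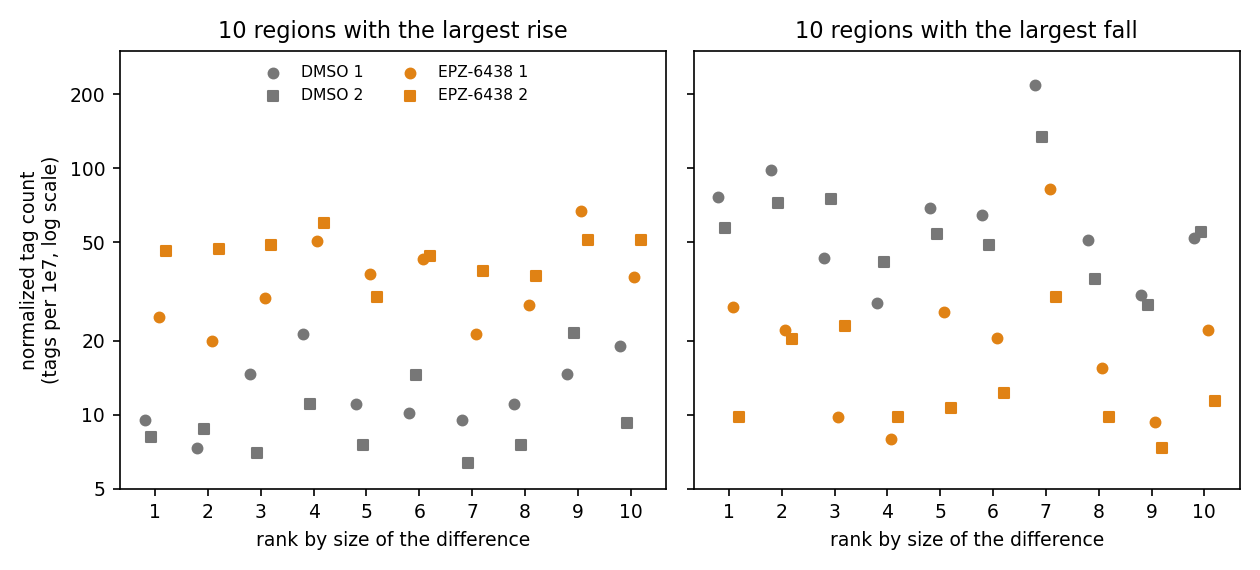
Normalized tag count (tags per 1e7, log scale) in each of the 4 libraries at the 10 regions with the largest rise (left) and the 10 with the largest fall (right), ordered by size of the difference. Grey marks are DMSO and orange marks EPZ-6438, circles are replicate 1 and squares replicate 2, and within every region all marks of one treatment lie on one side of the other.

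Rises and falls overlapped widely in signal level, with more falls at the strongest sites. Over the 4 libraries the median tag count was 28.5 at risen regions, 48.1 at fallen regions and 25.2 at all tested regions. When the tested regions were divided into deciles of mean tag count, the highest decile (65.35 to 608.2) held 3 risen and 61 fallen regions, deciles 6 to 9 (25.2 to 65.33) held 111 risen and 146 fallen, and deciles 3 to 5 (16.52 to 25.2) held 70 risen and 20 fallen. The lowest decile held 2 risen and 0 fallen regions. Its values lie close to the calling thresholds, and a region with no peak in any 1 of the 4 libraries leaves the test.

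The same tilt ran through all tested regions. In the lowest decile the median difference was 0.067 in replicate 1 and 0.12 in replicate 2. In the highest decile it was -0.064 and -0.20. The tilt is small beside the spread within a decile, where the highest decile had quartiles of -0.30 and 0.17 in replicate 1 and -0.45 and 0.044 in replicate 2. After removal of the trend that each library had on the mean tag count, limma with the block called 200 regions higher and 173 lower, and 322 of these were among the 418.

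**Figure D3:**
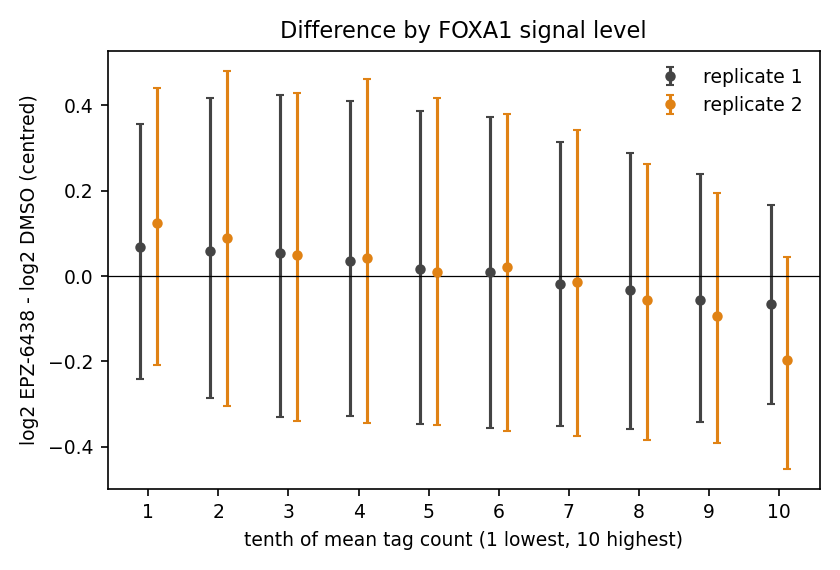
Median difference between EPZ-6438 and DMSO (y axis, log2, centred) in each decile of mean tag count (x axis), with bars from the lower to the upper quartile of regions. Black is replicate 1 and orange replicate 2; the medians go from 0.067 and 0.12 in the lowest decile to -0.064 and -0.20 in the highest.

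The 5 strongest FOXA1 sites did not pass the test with centring and all 4 libraries. At chr2:242032793-242033157, the highest of all, the tag count was 768.6 and 669.9 under DMSO and 540.5 and 453.7 under EPZ-6438, a log2 difference of -0.48 ± 0.19 (SE, adjusted p = 0.232 by limma). At chr15:69886978-69887350 it was 573.3 and 435.4, then 501.1 and 324.4 (-0.25 ± 0.20). At chr17:77809855-77810225 it was 540.4 and 503.3, then 444.5 and 327.7 (-0.39 ± 0.20). At chr17:79367737-79368102 the values were 430.0 and 402.3, then 429.0 and 329.3 (-0.09 ± 0.20), with a positive sign once the trend or the distribution of the libraries was equalised. The adjusted p of the 5 strongest regions ranged from 0.232 to 0.902. Without centring, limma called chr2:242032793-242033157 (-0.53, adjusted p = 1.98e-06) and chr17:77809855-77810225 (-0.45, adjusted p = 0.00502) lower, and it called the first of them without EPZ-6438 replicate 1 too (adjusted p = 0.0326). In the other alternatives run, the adjusted p by limma or edgeR was 0.102 to 1 for the first and 0.0861 to 1 for the second.

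The P5091 libraries allowed the same regions to be looked at in cells that the calls had not used, by setting the combination of EPZ-6438 and P5091 against P5091 alone within replicate numbers. Of the 132 risen regions called in all 8 FOXA1 libraries, 106 were also higher with the combination in both replicate numbers and 2 were lower in both. Of the 158 such fallen regions, 137 were lower in both and 0 were higher in both. Over all 24188 regions called in all 8 libraries, 28.2% were higher in both and 28.0% lower in both. Risen regions had a median log2 difference of 0.96 in replicate 1 and 0.42 in replicate 2, fallen regions of -0.76 and -0.56, and all regions of 0.030 and -0.019. No library is shared between the comparisons, and no test was run on these counts.

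Combination replicate 1 stands apart, with 5.26% of its tags in peaks against 18.9% to 21.2% in the other FOXA1 libraries. Over regions called in all 8 libraries, its median difference from P5091 was 0.80 in the lowest decile of mean tag count. In the highest decile it was -0.27, and replicate 2 had 0.15 and -0.10. These medians rest on 216 of 4482 regions in the lowest decile and 4454 of 4473 in the highest. A weak region counts here only if combination replicate 1 had a peak, which favours high values in that library. In replicate 2 alone, 154 of 186 risen regions were higher with the combination (82.8%, against 49.3% of all 40208 regions) and 191 of 217 fallen regions were lower (88.0%, against 50.7%). Within deciles 5 to 8 of mean tag count, replicate 2 had 96 of 116 risen regions higher and 77 of 89 fallen regions lower, where 48.9% and 51.0% of all regions of those deciles did so. Among the called regions the median difference in replicate 2 was 0.43 for the risen and -0.59 for the fallen ones. The difference under EPZ-6438 alone chose these regions, so the sizes were not compared.

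**Figure D4:**
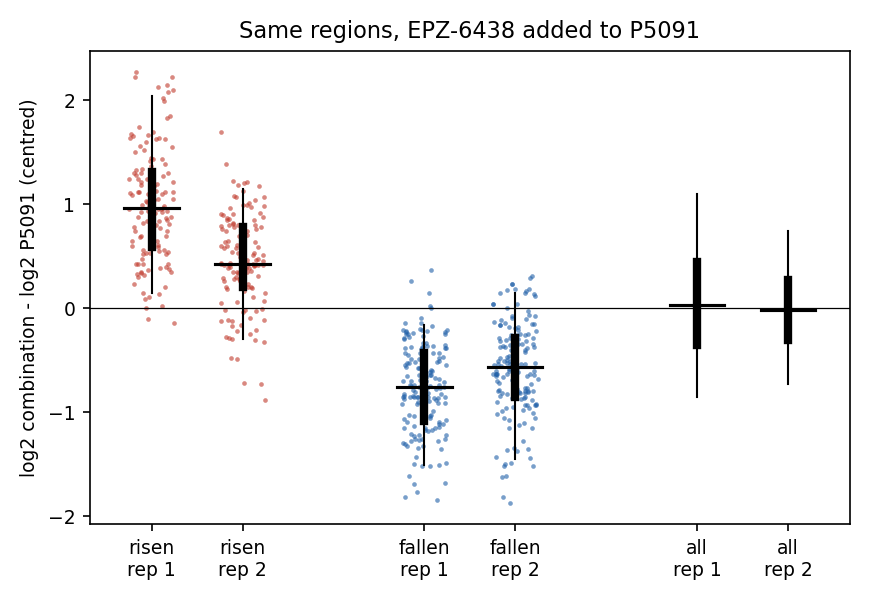
Difference between the combination and P5091 (y axis, log2, centred) at risen (red), fallen (blue) and all tested regions called in all 8 FOXA1 libraries, by replicate number. Points are single regions, the horizontal line is the median, the thick bar spans the quartiles and the thin line the 5th to 95th percentile; risen regions lie mostly above 0 and fallen ones mostly below it in both replicates.

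Single named sites varied in the other libraries; tag counts are given as deposited, and centred differences allow for the lower level of combination replicate 1 (median 14.4 at tested regions, against 27.4 for P5091 replicate 1). At chr12:39285941-39286319 the tag count was 9.13 and 30.3 under P5091 and 18.1 and 53.7 with the combination, centred log2 differences of 2.22 and 0.85. At chr2:99321208-99321600 it was 60 and 33.9 under P5091, then 18.1 and 14.2 (centred -0.37 and -1.15). At chr1:214248655-214249055, one of the 10 largest rises (11 and 7.55 under DMSO, 37.2 and 30.1 under EPZ-6438), it was 12.4 and 26.6 under P5091, then 14.4 and 22.1 (centred 1.504 and -0.21), so replicate 2 went the other way. Over all risen regions with a value, the medians were 14.6 and 16.3 under DMSO against 34.5 and 47.2 under EPZ-6438. P5091 alone had 19.6 and 27.8, its combination 16.3 and 39.5. Over all tested regions with a value, the medians were 27.1 and 24.4 under DMSO and 23.5 and 26.0 under EPZ-6438. P5091 alone had 27.4 and 26.6 there, its combination 14.4 and 26.0. The DMSO and EPZ-6438 values chose the risen regions.

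HA-tagged FOXA1, added to FOXA1-knockdown cells and precipitated through its tag, was found at risen sites about as often as at all tested sites, and at a larger share of fallen ones. Of the risen regions 152 of 191 (79.6%) overlapped a peak of wild-type HA-FOXA1, and of the fallen regions 220 of 227 (96.9%), against 80.8% of all tested regions. For HA-tagged FOXA1 with the K295A change the counts were 144 (75.4%) and 221 (97.4%), against 78.6% of all. These shares were not tested, and fallen regions have higher FOXA1 signal than all tested regions. The 2 libraries with no tagged protein had a peak at 0 of the 418 changed regions and each at 18 of the 44736 tested. Fallen regions were stronger than risen ones in the HA library too, with a median tag count of 44.3 against 19.8, and 22.1 over all tested regions.

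More of the uncalled neighbours of changed regions differed in the same direction than in the other. Of the called regions themselves, 6 of the 191 risen and 4 of the 227 fallen regions had another region with the same call within 50000 bases. None had one with the opposite call. Risen regions were 0.427% and fallen regions 0.507% of all tested regions. With shares this low, the lack of opposite calls near so few regions says little, and these counts were not tested. Of the 220 tested, uncalled regions within that distance of a risen region, 140 (63.6%) were higher under EPZ-6438, with a median log2 difference of 0.13. Of the 571 around fallen regions 38.5% were higher, with a median of -0.13. Over all tested regions 49.1% were higher. Risen regions stood in sparser surroundings, with a median of 3 other merged regions within 50000 bases, against 6 for fallen and 5 for all tested regions.

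Sites called with one treatment alone were weak. Both EPZ-6438 libraries and neither DMSO library held a peak at 5844 regions, 4.76% of the 122847, and both DMSO libraries and neither EPZ-6438 library at 4262, 3.47%. By replicate number, 5233 regions (4.26%) were called in both replicate 2 libraries alone and 2260 (1.84%) in both replicate 1 libraries alone. The remaining pairings held 2514 regions (2.05%, EPZ-6438 replicate 1 and DMSO replicate 2) and 1742 (1.42%, DMSO replicate 1 and EPZ-6438 replicate 2). Median tag counts were 11.5 and 13.0 at the EPZ-6438-only regions and 13.9 and 11 at the DMSO-only regions, and at least 30 tags per 1e7 in both libraries were reached by 37 and 36 of them. A region without a peak has no deposited tag count, so its level in the other treatment is unknown.

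The other libraries called part of these regions. In replicate 2 the combination called 59.2% and P5091 48.0% of the EPZ-6438-only regions, against 38.9% and 54.0% of the DMSO-only regions, where 60.3% and 61.4% of all merged regions were called; these differences between shares were not tested. In replicate 1 the combination library called 9.51% and P5091 27.6% of the EPZ-6438-only regions, and 6.29% and 55.3% of the DMSO-only regions, against 24.65% and 52.34% of all merged regions.

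Among the EPZ-6438-only regions with no DMSO peak within 1000 bases, the highest mean tag count was at chr11:85194933-85195295, with 89.4 and 129.3 tags per 1e7; both untagged HA libraries had a peak there, of 24.8 and 38.7. At chr6:110710989-110711351 the values were 54.4 and 48.8, with 37.2 and 29.7 for P5091 and 18.8 and 67.9 for the combination. At chr2:113484423-113484785 they were 48.3 and 53.7. Both P5091 libraries also had a peak at each of these 3 sites.

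Among the DMSO-only regions with no EPZ-6438 peak within 1000 bases, the highest mean tag count was at chr15:93160881-93161245, with 85.6 and 51.7 tags per 1e7 under DMSO, 70.5 and 35.7 under P5091, and no peak in either EPZ-6438 or either combination library. At chr20:17596486-17596850 it was 56.3 and 33.1 under DMSO, 52.8 and 23.6 under P5091, and 8.68 in combination replicate 2 alone. At chr7:12864006-12864370 it was 34.4 and 55.7 under DMSO, 34.6 and 40.6 under P5091, and 7.10 in combination replicate 2. In contrast chr12:124890597-124890961 (47.5 and 43.0 under DMSO) had a peak of 41.8 in combination replicate 2, close to the 43.0 of P5091 replicate 2.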

How the data were processed

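Per the labels' protocols, sheared chromatin was precipitated with a FOXA1 antibody and sequenced single-end. The build is hg19 and the tools named are Bowtie2 and HOMER 4.2, per the submitters' processing notes. Per the file headers, the authors called peaks in each library with findPeaks in factor mode (false discovery rate 0.001, at least 4-fold and p of 1.00e-04 over a 10 kb window and over an input shared by both replicates of a treatment). The deposited normalized tag count is a signal value scaled to 1e7 tags. The deposited findPeaks score served for a stricter threshold of 20. The deposited fold over input is the caller's ratio. The deposited total tag count per peak, given for DMSO replicate 1 and EPZ-6438 replicate 2, equalled the tags recovered for edgeR at 97.3% and 100% of peaks.

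Each library was given its highest peak per merged region, log2 (tag count + 1) was centred on the library's median over regions called in all 4, and limma 3.58.1 (trend, R 4.3.3) or edgeR 4.0.16 (quasi-likelihood, TMM) was fitted with Benjamini-Hochberg adjustment. The block follows the replicate numbers of the titles; deviations of same-numbered libraries correlated at 0.275. Steps were tested on simulated data. Members, lists and this fit were chosen with earlier results of these data known. Named regions were the 10 largest rises and falls among calls with one direction in both replicates, the 5 strongest regions, and the 5 strongest called with one treatment alone without a peak of the other within 1000 bases. Lists of genes and motifs planned for an hg19 annotation were not used here. The precision of a tag count is limited by its number of tags.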

Additional observations from a re-analysis of the deposited data

How the results depend on the processing

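The count of 418 regions was 339 to 454 under quantile normalization, trend removal, a pseudocount of 5, regions called in all 8 FOXA1 libraries, tag counts above the median, edgeR, merging only by a larger overlap (50% of the shorter peak) and tag counts per 300 bases, and 384 when at least 1.5-fold in both replicates was also asked, an alternative chosen after seeing the data. It was 21 with no replicate block, 215 with the block but no centring, 239 at a findPeaks score of at least 20, 162 with all 8 libraries in the fit, and 724 (236 higher, 488 lower) for regions called in at least 3 of the 4 libraries, where an uncalled library got its lowest value. Leaving out 1 library, and with it the block, gave 0 to 39. Most calls were thus lost without the pairing by replicate number; the cause was not tested. Peak number differed by 0.0931 with or without the replicate block and by -0.00848 to 0.195 with 1 library left out, the lower value without DMSO replicate 1. The median tag count difference of -0.0548 became -0.128 to 0.018 with 1 library left out, positive without DMSO replicate 1 (0.018) or EPZ-6438 replicate 1 (0.0153). Peaks with a score of at least 20 gave 2291 EPZ-6438-only and 1539 DMSO-only regions. Without centring 109 regions were at least 2-fold higher and 142 lower in both replicates and 34 in opposite directions, so that balance turned. The share of changed regions that went the same way in the combination in both replicates was 83.8%, and 92.3% (12 of 13) for those called without the block. Among the 5 strongest regions, quantile normalization and trend removal reversed chr17:79367737-79368102 (0.0898 and 0.15) and the one on chromosome 8 (0.0909 and 0.0793), and without EPZ-6438 replicate 2 the sign reversed at chr15:69886978-69887350 (0.129) and chr17:79367737-79368102 (0.169); without EPZ-6438 replicate 1 these were -0.637 and -0.351. Of the 20 largest changes, 9 rises and 7 falls still passed without the block, and 1 fall missed when 3 called libraries sufficed. Tag counts near 10 per 1e7 rest on few tags, which limits the weak side of both the rises and the falls.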

Other observations

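Changed regions were spread over the chromosomes. Over all tested regions 0.427% were risen and 0.507% fallen. Chromosome 6 held 4 risen (0.136%) and 19 fallen regions (0.644%) of 2949 tested. Chromosome 12 held 12 (0.557%) and 5 (0.232%) of 2155, and chromosome 18 held 10 (0.882%) and 5 (0.441%) of 1134. Chromosome X held 0 risen and 3 fallen regions of 1006. Chromosomes 21, 22 and Y, with 605, 519 and 190 tested regions, held 0 risen regions too. The differences between chromosomes were not tested.

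Input libraries, 1 per treatment, gave few tags at these sites. At risen regions the mean input tag count was 0.867 and 0.882 of the mean over all tested regions in the DMSO lists and 1.04 and 1.02 in the EPZ-6438 lists, and at fallen regions 1.06 and 1.04, then 0.976 and 1.00. Input thus differed in the same direction as FOXA1, less than the 2.43-fold median rise; its part in the result was not tested.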
